A study of Mus musculus with 32 samples.

Results

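The transcription factor NRF2, its repressor, the antioxidant enzymes it is known to induce and the metallothioneins were followed in the livers of *Cyp2c70* knockout (KO) and wild-type (WT) mice. The 10 genes were chosen by name: *Nfe2l2*, *Keap1*, *Nqo1*, *Srxn1*, *Txnrd1*, *Gclc*, *Gclm*, *Hmox1*, *Mt1* and *Mt2*. Each matched 1 of the 54532 genes in the deposited count table. The mice were C57BL/6 animals of both sexes, 12 weeks old, and gave 1 liver library each. There were 8 groups of 4 mice: female or male, WT or KO, on plain chow or on chow with the ileal bile acid transporter (IBAT) inhibitor SC-435 at 0.006% of the diet, a dose of about 11 mg/kg/day. The KO allele was a germline CRISPR/Cas9 deletion of exon 2 of *Cyp2c70*, the gene for the enzyme that makes muricholic acids in mice, so the deletion was not limited to the liver. SC-435 acts on bile acid uptake in the ileum, while the measurements were made in the liver. The labels put the switch to SC-435 at 3 weeks after weaning, whereas the methods of the study describe feeding from weaning on.

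NRF2 is the product of *Nfe2l2* and is held at a low level by KEAP1, an adaptor that passes it to a ubiquitin ligase. When electrophiles or oxidants modify KEAP1, NRF2 enters the nucleus, pairs with a small MAF protein and binds antioxidant response elements (AREs) near genes for quinone reduction, thioredoxin and sulfiredoxin activity, glutathione synthesis and heme breakdown. Hydrophobic bile acids, which build up in cholestasis, are known to cause oxidative stress in hepatocytes. Metallothioneins bind zinc and are switched on by the metal sensor MTF1 through metal response elements (MREs), and also by glucocorticoids and inflammatory signals. The activity of NRF2 is set mainly by the amount of its protein, which RNA counts do not measure.

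The promoter sequences of 8 of the 10 genes were found in RefSeq (GRCm38.p6). The 250 bases before the start site are shown for *Nqo1*, *Srxn1*, *Gclm*, *Mt1* and *Mt2*. Those of *Gclc* and *Hmox1* were not used here. *Nqo1* encodes an NADPH-dependent quinone reductase, *Srxn1* sulfiredoxin and *Gclm* the modifier subunit of glutamate-cysteine ligase. In these 3 sequences, capitals mark matches to the ARE core TGACNNNGC on either strand. The windows lie at chr8:107403206-107403455 (minus strand), chr2:152105274-152105523 (plus) and chr3:122245307-122245556 (plus).
Nqo1: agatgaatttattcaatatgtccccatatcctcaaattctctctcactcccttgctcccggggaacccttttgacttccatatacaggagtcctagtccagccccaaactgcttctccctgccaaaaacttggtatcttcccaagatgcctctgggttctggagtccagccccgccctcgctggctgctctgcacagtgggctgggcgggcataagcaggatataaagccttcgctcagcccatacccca
Srxn1: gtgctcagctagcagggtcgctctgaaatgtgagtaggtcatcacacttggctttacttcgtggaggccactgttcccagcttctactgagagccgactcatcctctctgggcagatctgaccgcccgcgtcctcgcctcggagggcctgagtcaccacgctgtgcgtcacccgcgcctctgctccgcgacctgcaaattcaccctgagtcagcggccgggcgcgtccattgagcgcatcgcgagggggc
Gclm: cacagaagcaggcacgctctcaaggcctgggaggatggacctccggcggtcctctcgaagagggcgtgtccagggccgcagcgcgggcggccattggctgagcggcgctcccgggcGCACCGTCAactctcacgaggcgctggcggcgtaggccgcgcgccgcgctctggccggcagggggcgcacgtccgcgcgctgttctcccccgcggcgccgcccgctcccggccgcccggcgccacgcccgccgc

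The *Gclm* window held 1 match, 134 to 126 bases before the start on the opposite strand, and the other 2 held 0. That *Gclm* match overlapped 1 of 2 MRE matches in the same window. Matches to the ARE core were present in 10.2% of all 32851 promoter windows of this length. *Nfe2l2*, *Mt2* and 1 of 3 windows of *Txnrd1* also held 1 match each, and *Keap1* held 0.

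For the metallothioneins *Mt1* and *Mt2*, neighbours on chromosome 8, capitals mark the MRE core, searched as TGCACNC and TGCGCNC on either strand. The windows lie at chr8:94178839-94179088 and chr8:94172368-94172617, both on the plus strand.
Mt1: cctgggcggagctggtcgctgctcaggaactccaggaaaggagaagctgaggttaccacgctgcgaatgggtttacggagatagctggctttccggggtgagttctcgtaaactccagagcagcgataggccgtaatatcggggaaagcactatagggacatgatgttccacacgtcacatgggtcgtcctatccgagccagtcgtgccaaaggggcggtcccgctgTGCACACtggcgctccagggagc
Mt2: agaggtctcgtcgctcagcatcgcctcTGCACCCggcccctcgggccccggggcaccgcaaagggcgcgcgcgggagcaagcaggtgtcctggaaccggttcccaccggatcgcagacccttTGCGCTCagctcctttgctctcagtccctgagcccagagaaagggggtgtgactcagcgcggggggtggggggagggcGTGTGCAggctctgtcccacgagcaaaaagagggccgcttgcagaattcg

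The *Mt2* window held 3 MRE matches, a number reached by 1.26% of all windows, and also 1 match to the ARE core that did not overlap them. The *Mt1* window held 1, and 21.4% of all windows held at least 1. A match is a string of letters in this window and does not show binding. Sites outside the windows, such as those after the annotated start, and sequences that differ from the cores were not searched. The *Srxn1* window, for example, holds TGAGTCAGC, which differs from the ARE core by 1 base. A low number therefore does not show that a gene lacks such sites.

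Most of the differences that passed the test in these genes were between SC-435 and chow. In females, SC-435 went with more *Nqo1* and less *Gclc* RNA in both genotypes, with more *Srxn1* and *Mt1* in WT mice, and with less *Hmox1* in KO mice. In male KO mice it went with more *Nqo1* and *Gclm* and less *Nfe2l2*. Between the genotypes on chow, *Hmox1* in females was the only 1 of the 10 genes past the threshold in either sex with all mice in the fit, where a call means an adjusted p under 0.05 in the quasi-likelihood test of edgeR (Benjamini-Hochberg over all genes tested).

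Read against all genes, these counts were mostly modest. Of the 10 genes, 1 was called in female KO against WT mice on chow, where 14.9% of the 16205 genes tested were called. SC-435 against chow in female KO mice called 3 of the 10 with 17.8% of all genes called, so that this share did not stand far from the background. In female WT mice it called 4 of the 10 (3 higher, 1 lower), against 4.28% of all genes. In male KO mice it called 3 of the 10, against 17.2% of all genes. None of the 10 was called by edgeR in male KO against WT mice on chow (1.08% of all genes called) or in male WT mice given SC-435 (0.0394%). In those comparisons 2 and 3 of the 10 had an unadjusted p under 0.05, and DESeq2 called 0 in both. In simulated data edgeR also found fewer of the changed genes for KO against WT males on chow than for females, so a missing call there does not show that the groups were alike. The comparisons within a sex share groups of mice, so their values are set side by side and not counted as separate evidence. Groups without overlap were found for 1 of the 10 genes in KO against WT females on chow (21.6% of all genes), 4 with SC-435 in KO females (21.9%) and 4 with SC-435 in WT females (13.3%). In males these were 1 (14.7%), 4 (26.1%) and 1 (7.02%). The median log2 fold change of the 10 genes was 0.31 in female KO against WT mice on chow, beside -0.02 over all genes tested. It was 0.23 for SC-435 in female KO mice and 0.15 in female WT mice, beside -0.02 and -0.00. In males it was 0.42 for KO against WT mice on chow beside 0.04, -0.14 for SC-435 in KO mice beside -0.03, and 0.18 for SC-435 in WT mice beside -0.03. With male WT replicate 1 on chow left out, a library that stood apart, the first and last of these were 0.39 and 0.31. *Mt1* with SC-435 in female WT mice was also beyond a fold of 2, as 1.10% of all genes were in that comparison.

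**Figure D1:**
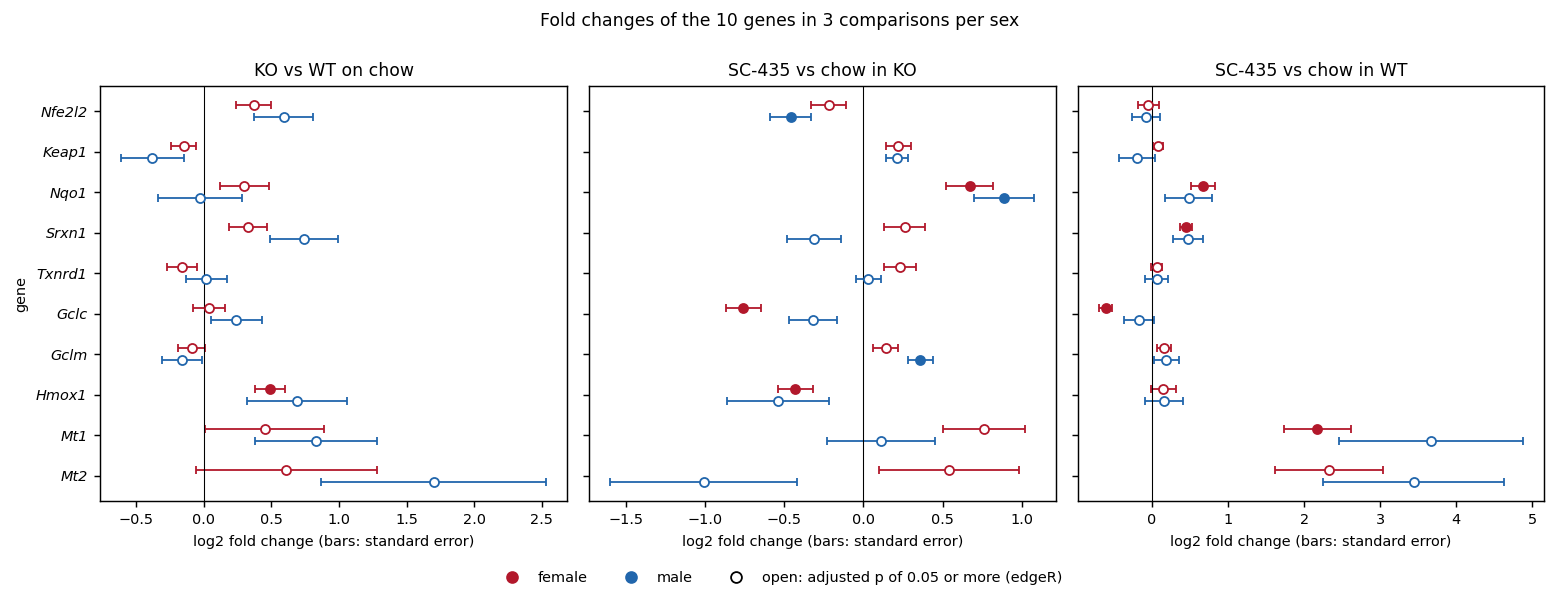
Log2 fold change of each of the 10 genes (x axis; bars are the standard error, filled points have an adjusted p under 0.05 in edgeR) for KO against WT on chow and for SC-435 against chow in KO and WT mice, females in red and males in blue, 4 mice a group. Filled points are *Hmox1* in the first panel, *Nqo1*, *Gclc*, *Hmox1*, *Gclm* and *Nfe2l2* in the second, and *Nqo1*, *Srxn1*, *Gclc* and *Mt1* in the third, where the bars of *Mt1* and *Mt2* in males span more than 2 log2 units.

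Libraries held 36476021 to 44771350 counts on genes. *Cyp2c70* RNA was at 110 to 187 CPM (counts per library total after TMM correction) in KO mice and at 275 to 851 CPM in WT mice, and these groups did not overlap. Of 8 hepatocyte markers, 7 were in the table and none was at 0 in any mouse. One library stood apart, male WT on chow, replicate 1. Its log2 CPM correlated with those of its group at 0.871 on average where the other 3 had 0.947 to 0.951, and its TMM factor was 0.639 where theirs were 0.955 to 1.01. Of the 10 genes, 7 lay above and 2 below the range of the other 3 mice in that library, so fold changes of these genes in male comparisons that use it are given with and without it. In bulk liver, fewer cells of a type and less RNA per cell cannot be told apart. Where libraries were scaled by their totals only, the all-gene median went from -0.02 to 0.17 for KO against WT females on chow and from -0.02 to -0.18 for SC-435 in KO females. In males the moves were from 0.04 to 0.29 and from -0.03 to -0.23.

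Per unit of gene length (RPKM, the mean over all 32 mice), *Mt1* was the most abundant of the 10 genes at 124 RPKM, followed by *Gclc* at 86.3 and *Gclm* at 42.3. *Txnrd1* (22.9 RPKM), *Srxn1* (18.9), *Nfe2l2* (16.6), *Keap1* (13.4) and *Hmox1* (12.6) came next, an order that was not tested. *Nqo1* was at 6.86 RPKM and *Mt2* at 2.18. The place of *Mt2* in this order is uncertain, since 73.5% of the exonic bases of *Mt2* are shared with an antisense gene. The length used for *Mt1*, 1246 bases, is its whole annotated span, so its RPKM would be higher with a shorter length. All 10 genes are protein-coding in GENCODE M21 (GRCm38), and the counts cover their exons. The spread between mice of a group, as the pooled SD of log2 CPM, was below the 0.291 of the median gene for 6 of the genes. It was somewhat above it for *Nqo1* (0.326) and *Hmox1* (0.355), and wide for the metallothioneins, at 1.09 for *Mt1* and 1.29 for *Mt2*.

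**Figure D2:**
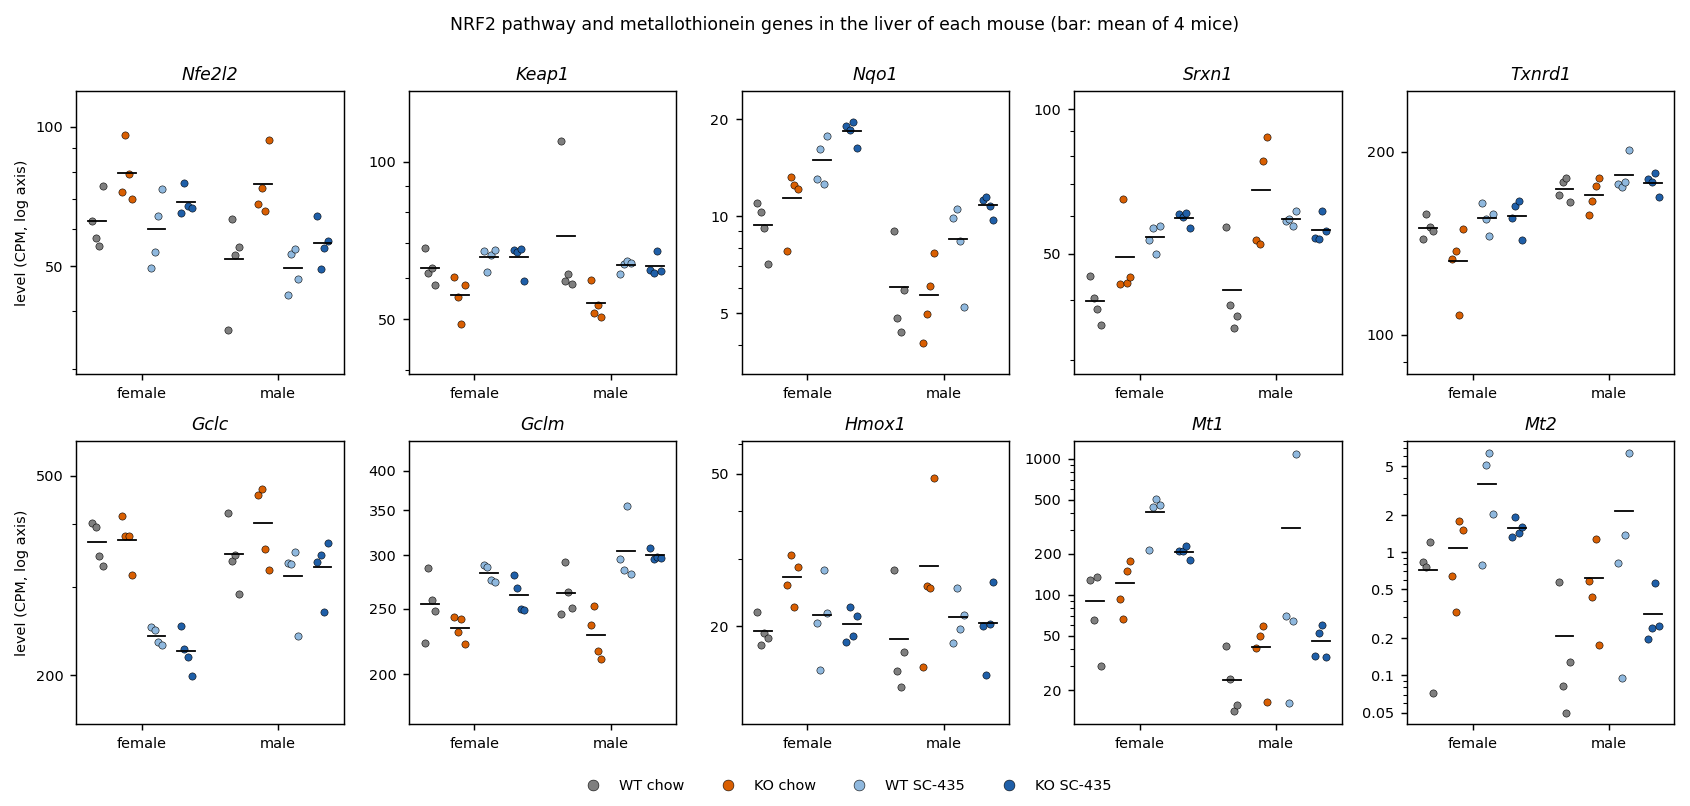
CPM (y axis, log scale) of each gene in each mouse, one panel a gene, with the 4 female groups to the left and the 4 male groups to the right; points are mice and bars are means of 4 mice. *Nqo1* steps up and *Gclc* steps down under SC-435 in females, and 1 male WT mouse on SC-435 stands at 1082 CPM for *Mt1*.

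*Nfe2l2* (ENSMUSG00000015839, chr2:75675513-75704641, minus strand) gives the factor NRF2 itself. In females its level was 62.7, 57.6, 55.2 and 74.4 CPM in WT mice on chow and 72.2, 95.9, 79.3 and 70.0 CPM in KO mice on chow. In KO females on SC-435 it was 65.3, 75.8, 67.3 and 66.6 CPM. The KO mice on chow were the highest group, but each of these ranges overlapped the next. The log2 fold change of KO against WT on chow was 0.37 (SE 0.13, adjusted p = 0.087), which did not pass. Of the 8 fits that left out 1 library, only the fit without KO replicate 4 called it (0.45, SE 0.13, adjusted p = 0.0428). Without KO replicate 2, the highest mouse, the log2 fold change was 0.29 (SE 0.13, adjusted p = 0.211). With total counts as the scale it was 0.56 (adjusted p = 0.0247), beside an all-gene median of 0.17.

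In males *Nfe2l2* was at 36.4, 63.1, 52.8 and 55.0 CPM in WT mice on chow and at 68.1, 74.0, 65.8 and 93.7 CPM in KO mice on chow. Every KO mouse lay above every WT mouse, and the log2 fold change was 0.59 (SE 0.22, adjusted p = 0.237). Without replicate 1 of the WT mice it was 0.44 (SE 0.14, adjusted p = 0.0948). Without KO replicate 4 it was also 0.44 (SE 0.21, adjusted p = 0.604). KO males on SC-435 were at 64.0, 49.2, 54.7 and 56.6 CPM, all below the KO males on chow. That fall passed the test, at -0.46 (SE 0.13, adjusted p = 0.0407), but it was called only without KO replicate 1 or 4 on chow among the 8 fits that left out 1 library (adjusted p up to 0.0986). Macrophage markers moved in the same comparison, with 5 of 12 lower and sums of 365 to 1420 CPM on chow and 300 to 458 CPM on SC-435, and their part in the result was not tested. In WT mice SC-435 changed *Nfe2l2* by -0.05 (SE 0.14) in females and -0.08 (SE 0.19) in males, or -0.21 (SE 0.10, adjusted p = 0.299) in males without WT replicate 1 on chow, none of them called.

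*Keap1* (ENSMUSG00000003308, chr9:21229730-21239361, minus strand), which encodes the repressor of NRF2, varied little. Apart from 109 CPM in male WT replicate 1 on chow, it lay between 49.0 and 68.3 CPM in all mice. KO mice on chow had the lowest means, 55.7 ± 4.89 CPM in females and 53.6 ± 4.08 CPM in males (SD, n = 4). KO mice on SC-435 had 65.6 ± 4.31 and 63.2 ± 2.80 CPM (SD, n = 4). In males every KO mouse on SC-435 lay above every KO mouse on chow, and in females they overlapped. The log2 fold changes were 0.22 (SE 0.08, adjusted p = 0.095) and 0.21 (SE 0.07, adjusted p = 0.0774), neither past the threshold. The latter was called without KO replicate 1 on chow (0.25, SE 0.07, adjusted p = 0.0387). Of the exonic bases of *Keap1*, 10.9% are shared with the antisense gene *Gm16754*.

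*Nqo1* (ENSMUSG00000003849, chr8:107388225-107403206, minus strand) encodes the NADPH quinone reductase widely used as a readout of NRF2 activity. Its mean was higher with SC-435 in all 4 contrasts, and the rise was called in 3 of them. In females it was at 11.0, 10.3, 9.19 and 7.14 CPM in WT mice on chow and at 13.1, 16.2, 12.6 and 17.8 CPM in WT mice on SC-435. KO females had 7.83, 13.2, 12.5 and 12.2 CPM on chow and 19.0, 18.5, 19.7 and 16.3 CPM on SC-435. In both genotypes all mice on SC-435 were above all mice on chow, and the KO mice on SC-435 were the highest group of the 8. The log2 fold change was 0.67 in KO mice (SE 0.15, adjusted p = 0.0158) and 0.67 in WT mice (SE 0.16, adjusted p = 0.0421). KO mice on SC-435 stood 0.97 above WT mice on chow (SE 0.13, adjusted p = 0.0011), a contrast that called 3 of the 10 genes higher and 1 lower, beside 8.73% and 7.30% of all genes. This last call was kept in every alternative fit, while the rise in WT females was lost without each of the 8 libraries but replicate 1 on chow (adjusted p up to 0.13). The rise in KO females was lost without replicate 3 of the KO mice on SC-435, at an adjusted p of 0.0504.

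In males the mean of *Nqo1* was lower than in females in each of the 4 groups. WT males on chow had 8.99, 4.82, 4.38 and 5.90 CPM and KO males on chow 4.04, 4.99, 6.07 and 7.71 CPM. KO males on SC-435 had 11.2, 11.5, 10.8 and 9.77 CPM, all above every male on chow. The log2 fold change with SC-435 in KO males was 0.89 (SE 0.19, adjusted p = 0.0175), lost without replicate 1 on SC-435 (adjusted p = 0.0528). With total counts as the scale it was 0.66 (adjusted p = 0.0865), beside an all-gene median of -0.23. WT males on SC-435 had 9.89, 10.6, 8.40 and 5.22 CPM, which overlapped the WT males on chow (log2 fold change 0.48, SE 0.31, adjusted p = 0.836). Without replicate 1 of the WT males on chow, the highest of them, it was 0.75 (SE 0.24, adjusted p = 0.144), and the mouse at 5.22 CPM still lay within the range of the other 3. That mouse, replicate 4 on SC-435, was also the one with *Mt1* at 1082 CPM. With all WT males on chow but without that mouse, *Nqo1* changed by 0.67 (SE 0.28, adjusted p = 0.845). Female WT mice on chow were 0.62 above male ones (SE 0.27, adjusted p = 0.453). Without male WT replicate 1 this difference was 0.89 (SE 0.18, adjusted p = 0.0144), in a comparison that then called 9.53% of all genes. Genotype alone gave no call for *Nqo1*, with 0.30 (SE 0.18) in females and -0.03 (SE 0.31) in males on chow, the latter 0.22 (SE 0.25, adjusted p = 0.596) without male WT replicate 1.

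*Srxn1* (ENSMUSG00000032802, chr2:152105516-152111376, plus strand) encodes sulfiredoxin, which repairs overoxidised peroxiredoxins. Female WT mice had 45.0, 40.3, 38.4 and 35.5 CPM on chow and 53.5, 56.5, 50.02 and 57.1 CPM on SC-435. Female KO mice had 43.2, 65.1, 43.5 and 44.7 CPM on chow and 60.4, 59.6, 60.6 and 56.5 CPM on SC-435. The WT groups did not overlap, and in KO mice replicate 2 on chow was above all 4 on SC-435. The rise passed the test in WT females (0.45, SE 0.08, adjusted p = 0.0201) and not in KO females (0.26, SE 0.13, adjusted p = 0.185). Without that replicate 2 it also passed in KO females, at 0.42 (SE 0.07, adjusted p = 0.0112). The call in WT females was lost without replicate 2 or 3 on chow or replicate 2 or 4 on SC-435 (adjusted p up to 0.0789). KO females on SC-435 against WT females on chow gave 0.59 (SE 0.08, adjusted p = 0.00159), which was kept in every alternative fit.

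Male KO mice on chow had the widest and highest *Srxn1* levels, 53.2, 52.4, 78.1 and 87.5 CPM, where WT mice on chow had 56.7, 39.0, 35.0 and 37.1 CPM. Replicate 1 of the WT mice lay inside the KO range and the other 3 lay below it. The log2 fold change of KO against WT was 0.74 (SE 0.25, adjusted p = 0.204) with all mice and 0.92 (SE 0.20, adjusted p = 0.0371) without that library, which then called 1 of the 10 genes and 7.30% of all genes. With that library kept and KO replicate 4 left out it was 0.56 (SE 0.26, adjusted p = 0.576). Cholangiocyte marker sums in KO replicates 1 to 4 were 178, 150, 495 and 1180 CPM. The part of these cells in the *Srxn1* levels was not tested. With SC-435, WT males had 58.5, 59.1, 57.0 and 61.4 CPM and KO males 53.8, 53.6, 61.3 and 55.7 CPM. In WT males all mice on SC-435 were above those on chow, with a log2 fold change of 0.47 (SE 0.20, adjusted p = 0.787). Without replicate 1 of the WT mice on chow it was 0.67 (SE 0.07, adjusted p = 0.00468), against 2.53% of all genes called. The change in KO males was -0.31 (SE 0.17, adjusted p = 0.225), or -0.16 (SE 0.14, adjusted p = 0.496) without KO replicate 4 on chow.

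*Txnrd1* (ENSMUSG00000020250, chr10:82833951-82897712, plus strand), the cytosolic thioredoxin reductase, passed in none of the 11 comparisons of groups by edgeR or DESeq2, with an unadjusted p under 0.05 in 1. It ranged from 108 to 181 CPM in mice on chow and from 143 to 202 CPM in mice on SC-435. Female KO mice on chow had the lowest mean, 132 ± 17.7 CPM (SD, n = 4), and male WT mice on SC-435 the highest, 183 ± 12.6 CPM. With SC-435 the change in KO mice was 0.23 in females (SE 0.10, adjusted p = 0.145) and 0.03 in males (SE 0.08). All 4 female WT mice on chow were below all 4 male ones, where 11.4% of genes did not overlap in either direction, with a log2 fold change of -0.24 (SE 0.14, adjusted p = 0.591), or -0.23 (SE 0.08, adjusted p = 0.113) without male replicate 1.

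Glutamate-cysteine ligase, the enzyme of the first step of glutathione synthesis, is made of a catalytic subunit (*Gclc*, ENSMUSG00000032350, chr9:77754535-77794485, plus strand) and a modifier subunit (*Gclm*, ENSMUSG00000028124, chr3:122245557-122270732, plus strand). *Gclc* fell with SC-435 in females of both genotypes. WT females had 403, 396, 346 and 330 CPM on chow and 250, 247, 233 and 230 CPM on SC-435. KO females had 417, 379, 380 and 317 CPM on chow and 251, 226, 217 and 199 CPM on SC-435. No mouse on SC-435 reached the lowest mouse on chow. The log2 fold change was -0.61 in WT mice (SE 0.09, adjusted p = 0.00724) and -0.76 in KO mice (SE 0.11, adjusted p = 0.00306). Both calls were kept in every alternative fit and without any 1 library. KO against WT differed by 0.04 on chow (SE 0.12, adjusted p = 0.853) and by -0.10 under SC-435 (SE 0.07, adjusted p = 0.428).

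In males the *Gclc* ranges overlapped in every comparison. KO males had 458, 470, 358 and 325 CPM on chow and 337, 347, 267 and 367 CPM on SC-435 (log2 fold change -0.32, SE 0.15, adjusted p = 0.152). With total counts as the scale this was -0.50 (adjusted p = 0.029), beside an all-gene median of -0.23. WT males had 421, 338, 347 and 291 CPM on chow and 335, 334, 353 and 240 CPM on SC-435 (-0.17, SE 0.20, adjusted p = 0.866), a change of -0.05 (SE 0.14, adjusted p = 0.883) without replicate 1 on chow. The female and male changes in KO mice differed by -0.46 (SE 0.19), with an unadjusted p of 0.0296 and an adjusted p of 0.329, so a difference between the sexes was not shown.

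With TMM scaling *Gclm* had positive fold changes with SC-435 in both sexes and genotypes, and only that in KO males was called. KO males had 237, 252, 216 and 211 CPM on chow and 308, 296, 298 and 297 CPM on SC-435, with no overlap. The rise was 0.36 (SE 0.08, adjusted p = 0.0191), lost without replicate 3 on chow or replicate 1 or 4 on SC-435 (adjusted p up to 0.0652). With total counts as the scale it was 0.17 (adjusted p = 0.119), beside an all-gene median of -0.23. KO females had 243, 231, 242 and 222 CPM on chow and 281, 268, 249 and 249 CPM on SC-435. These groups also did not overlap. With total counts as the scale the change was -0.02 (adjusted p = 0.887), beside an all-gene median of -0.18. With TMM it was 0.14 (SE 0.08, adjusted p = 0.237). In WT mice it was 0.16 (SE 0.09) in females and 0.19 (SE 0.16) in males, or 0.17 (SE 0.11) without male replicate 1 on chow, none of them called. Of the exonic bases of *Gclm*, 4.71% are shared with other annotated genes.

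*Hmox1* (ENSMUSG00000005413, chr8:75093621-75100589, plus strand) encodes heme oxygenase 1, which breaks heme down and is expressed in liver macrophages as well as in stressed hepatocytes. In females it was at 21.8, 17.9, 19.2 and 18.7 CPM in WT mice on chow and at 25.6, 30.7, 22.5 and 28.6 CPM in KO mice on chow. KO females on SC-435 had 18.2, 22.5, 18.8 and 21.3 CPM, and WT females on SC-435 had 20.4, 15.4, 28.1 and 21.6 CPM. All KO mice on chow were above all WT mice on chow, and only the lowest of them met the highest KO mouse on SC-435. KO against WT on chow was 0.49 (SE 0.11, adjusted p = 0.0173), and SC-435 against chow in KO mice was -0.43 (SE 0.11, adjusted p = 0.0252). The KO rise was lost without replicate 2 of the WT mice on chow (0.45, adjusted p = 0.0563). The fall under SC-435 was lost without replicate 2 of the KO mice on chow (-0.36, adjusted p = 0.0748), and without replicate 1 or 3 of the KO mice on SC-435.

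Macrophage markers moved with *Hmox1* in these groups. Of 12 markers, none at 0 in all 4 mice of any group, 9 rose in female KO against WT mice on chow and 11 fell with SC-435 in female KO mice. Their summed level was 397 to 475 CPM in WT females on chow, 637 to 968 CPM in KO females on chow and 326 to 507 CPM in KO females on SC-435. In KO females on chow these sums were 637, 968, 807 and 691 CPM in replicates 1 to 4, while *Hmox1* was highest in replicate 2 and lowest in replicate 3. Cholangiocyte markers were also higher, at 42.4 to 77.6 CPM, 165 to 369 CPM and 108 to 157 CPM in the same 3 groups. Sums of neutrophil markers there were 2.98 to 3.78, 5.15 to 11.7 and 2.42 to 3.93 CPM. Those of stellate cell markers were 204 to 260, 342 to 830 and 316 to 385 CPM. Of the 7 hepatocyte markers tested, 1 rose and 4 fell in KO females on chow. The part of these cells in the *Hmox1* result was not tested. In males 2 of the 12 macrophage markers rose in KO mice on chow and 5 fell with SC-435 in KO mice.

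In males *Hmox1* was at 28.0, 15.2, 13.8 and 17.1 CPM in WT mice on chow and at 15.6, 25.4, 25.1 and 48.8 CPM in KO mice on chow. The groups overlapped, and replicate 4 of the KO mice held both the highest *Hmox1* and the highest macrophage sum of all 32 mice, 1420 CPM. Its cholangiocyte sum was also the highest of all mice, 1180 CPM, where the other 3 of its group had 150 to 495 CPM. The log2 fold change was 0.69 (SE 0.37, adjusted p = 0.415) with that mouse and 0.26 (SE 0.32, adjusted p = 0.834) without it. Without replicate 1 of the WT mice, the highest of that group, it was 0.94 (SE 0.35, adjusted p = 0.126). With SC-435 KO males had 20.1, 14.9, 20.3 and 26.1 CPM, a change of -0.54 (SE 0.32, adjusted p = 0.25), or -0.14 (SE 0.21) without the same mouse.

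**Figure D3:**
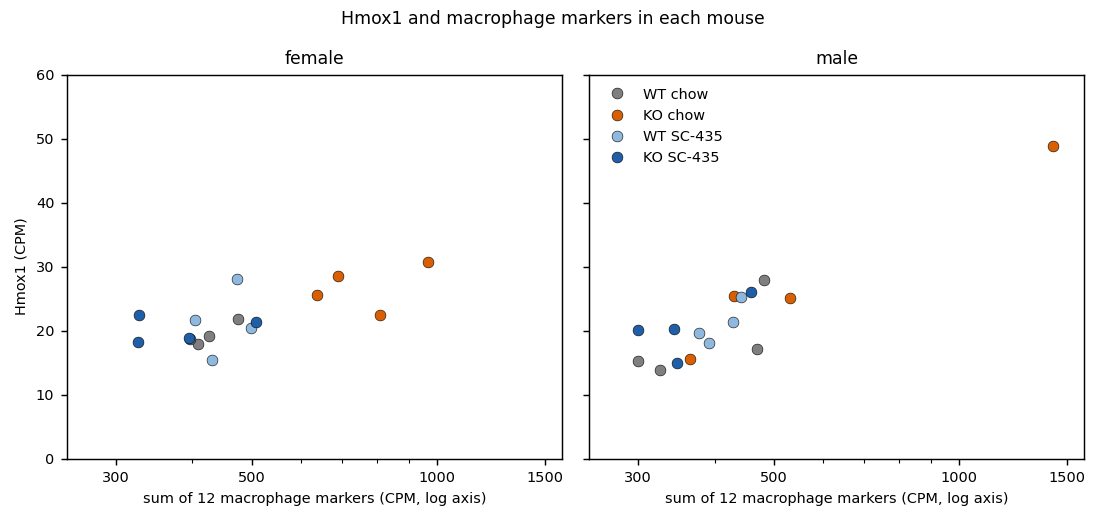
*Hmox1* (y axis, CPM) against the summed level of 12 macrophage markers (x axis, CPM, log scale) in each mouse, females left and males right, coloured by group. The 4 KO females on chow lie to the right of all other females, at sums of 637 to 968 CPM, and 1 KO male on chow stands alone at 48.8 and 1420 CPM.

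*Mt1* (ENSMUSG00000031765, chr8:94179082-94180327, plus strand) encodes a small zinc-binding protein and had the largest changes and the widest spread of the genes other than *Mt2*. WT females had 130, 65.7, 135 and 30.1 CPM on chow and 215, 438, 502 and 456 CPM on SC-435. KO females had 93.2, 66.3, 151 and 176 CPM on chow and 209, 210, 230 and 181 CPM on SC-435. In both genotypes every mouse on SC-435 was above every mouse on chow, and in KO mice the margin was narrow. The change was 2.17 in WT females (SE 0.44, adjusted p = 0.0268) and 0.76 in KO females (SE 0.26, adjusted p = 0.0677). In KO females it was called by DESeq2 (0.77, adjusted p = 0.0133), by edgeR with no filter on low counts (adjusted p = 0.0316) and without KO replicate 4 on chow (0.99, SE 0.23, adjusted p = 0.00996). The call in WT females was lost without replicate 2 on chow (2.05, adjusted p = 0.08) or replicate 2, 3 or 4 on SC-435 (adjusted p up to 0.0833). KO females on SC-435 were 1.21 above WT females on chow (SE 0.36, adjusted p = 0.0434), a call lost in 5 of 8 such fits, those without WT replicate 2 or any 1 of the KO mice. DESeq2 with all mice did not call it either (adjusted p = 0.0502). Under SC-435, KO females were lower than WT females, with a log2 fold change of -0.95 (SE 0.21, adjusted p = 0.0208), although the ranges overlapped. This was lost without KO replicate 1, 2 or 4 (adjusted p up to 0.0606). This comparison called 1 of the 10 genes and 10.9% of all genes. The interaction of genotype and SC-435 in females was -1.42 (SE 0.55, adjusted p = 0.158), so the changes in WT and KO females were not shown to differ.

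In males *Mt1* was lower and was set apart by 1 mouse. WT males had 42.0, 24.0, 14.0 and 15.6 CPM on chow and 69.9, 16.2, 64.0 and 1082 CPM on SC-435. KO males had 40.5, 50.01, 59.0 and 16.4 CPM on chow and 35.8, 52.3, 60.2 and 34.9 CPM on SC-435. All male groups overlapped. In WT males the change with SC-435 was 3.67 (SE 1.21, adjusted p = 0.631) with all mice and 1.06 (SE 0.56, adjusted p = 0.917) without replicate 4 on SC-435. Without replicate 1 on chow it was 4.10 (SE 1.36, adjusted p = 0.158). Replicate 4 on SC-435 also had the acute-phase gene *Saa1* at 9390 CPM, where the other 3 had 25.5 to 49.2 CPM, *Saa2* at 9180 CPM against 8.40 to 15.2 CPM and *Lcn2* at 770 CPM against 2.07 to 5.15 CPM. All 5 acute-phase genes of the list were highest in that mouse. Of its 5 stress-hormone targets 4 were lowest there, with *Fkbp5* at 33.6 CPM and *Per1* at 6.29 CPM, while *Sgk1* was at 29.6 CPM, above 22.7 and 24.7 CPM in 2 of the others. The part of an acute-phase response in its *Mt1* level was not tested. In female WT mice on SC-435, where *Mt1* rose, *Saa1* was at 17.7 to 25.0 CPM. In replicates 3 and 4 of that group each of the stress-hormone targets was lower than in replicates 1 and 2. *Fkbp5* was at 138, 146, 83.7 and 43.1 CPM in replicates 1 to 4, and *Per1* at 52.6, 39, 4.08 and 4.85 CPM. The part of stress hormones in *Mt1* there was not tested. For *Mt1*, female WT mice on chow were 1.89 above male ones (SE 0.52, adjusted p = 0.169), and 2.32 above them without replicate 1 of the males (SE 0.47, adjusted p = 0.0159).

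*Mt2* (ENSMUSG00000031762, chr8:94172664-94173568, plus strand) had 2 to 267 counts a library, where *Mt1* had 560 to 40240. Of its 588 exonic bases, 432 (73.5%) are shared with the antisense gene *Gm45774*. The sources used here do not give the strand setting of the counting, so how reads in the shared bases were counted is not known. *Gm45774* itself had 0 to 70 counts a library, with a median of 3. The level of *Mt2* ranged from 0.0501 to 6.44 CPM. The ratio of *Mt1* to *Mt2* per length ran from 21.7 to 198 with a median of 55.8. The length used for *Mt1*, 1246 bases, is its whole annotated span. That of *Mt2* is only part of its span, so these lengths are unlike. For these reasons the *Mt2* values are uncertain. They followed *Mt1* across mice, with the highest values in a female WT mouse on SC-435 (6.44 CPM) and in the male WT mouse that was also highest for *Mt1* (6.35 CPM). *Mt2* passed in none of the 10 comparisons of groups in which edgeR tested it, nor by DESeq2, with an unadjusted p under 0.05 in 5. Without WT replicate 1, KO against WT females under SC-435 passed at -1.51 (SE 0.34, adjusted p = 0.0322). Its change with SC-435 in WT females was 2.33 (SE 0.71, adjusted p = 0.103).

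**Figure D4:**
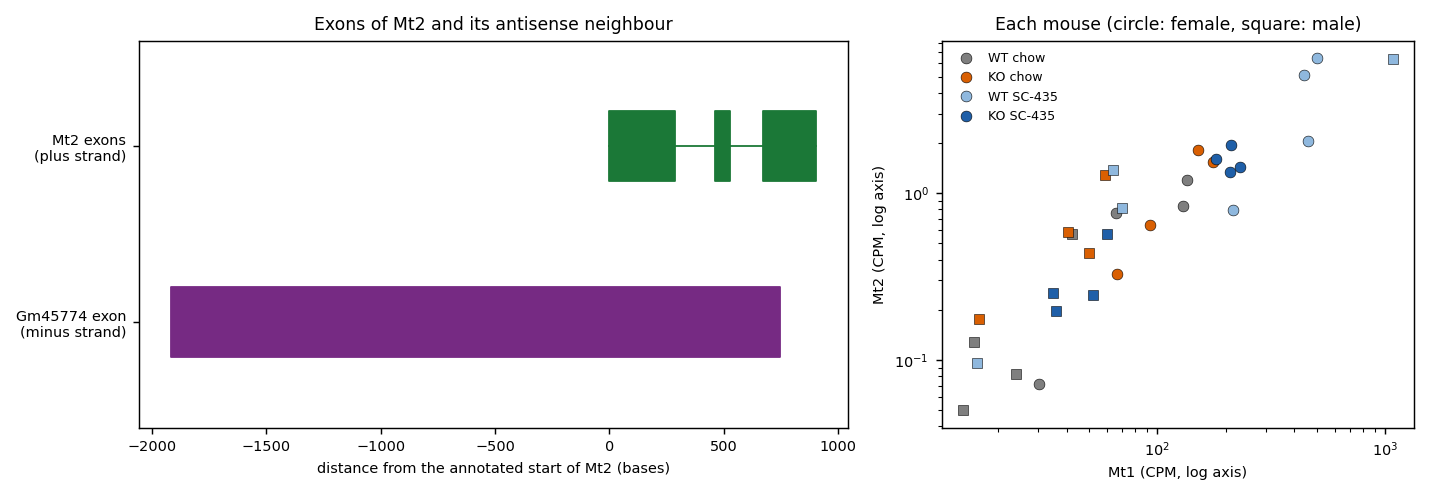
Left, exons of *Mt2* and of its antisense neighbour *Gm45774* on a scale of bases from the annotated start of *Mt2*; right, *Mt2* against *Mt1* in each mouse (CPM, both axes log scale; circles are females, squares are males). The antisense exon covers the first 2 exons of *Mt2* and part of the last, and mice high in 1 gene are high in the other.

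Whether genotype changed the response to SC-435, and whether the sexes differed, was tested with interaction terms. None of 40 such tests over the 10 genes passed by edgeR. The smallest adjusted p was 0.125, for *Hmox1* in females, where the response in KO mice minus that in WT mice was -0.58 (SE 0.20), and with total counts as the scale it passed at -0.75 (adjusted p = 0.0497). In that female interaction 2 of the 10 genes had an unadjusted p under 0.05 and 2.64% of all genes were called. In the male one these were 3 genes and 0.0906% of all genes. The sex difference of KO against WT mice on chow had 0 genes at an unadjusted p under 0.05 and 0.0235% of all genes called, and that of SC-435 in KO mice had 3 and 0.211%. DESeq2 called 1 of the 10 in the male interaction, *Mt2*, and 0 in the other 3. Without male WT replicate 1 on chow, *Srxn1* passed in the male interaction at -1.01 (SE 0.22, adjusted p = 0.0477). Of the remaining comparisons, KO males on SC-435 against WT males on chow gave 0 called of 9 genes tested (0.208% of all genes) and against WT males on SC-435 0 of 10 (0.0324%). Both had 2 genes at an unadjusted p under 0.05, and DESeq2 called 0. Without the library that stood apart, the former called 3 of 9, *Nqo1* (1.09, SE 0.13, adjusted p = 0.00164), *Srxn1* (0.59, SE 0.07, adjusted p = 0.00183) and *Mt1* (1.35, SE 0.24, adjusted p = 0.00913), against 12.2% of all genes. Female against male WT mice on chow gave 0 of 10 (1.49% of all genes), with 2 at an unadjusted p under 0.05 and 1 called by DESeq2.

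The other genes of the pathway were described through 9 lists with 95 genes, of which 90 were tested. In female KO against WT mice on chow 11 rose and 9 fell, where 14.9% of all genes were called. With total counts as the scale these were 17 and 3, and 18.5% of all genes. At most 3 of the falls named below were therefore called on that scale. Of 19 genes for detoxification and export, 5 rose, among them the glutathione transferases *Gsta2* (1.06, SE 0.17, adjusted p = 0.0037) and *Gsta1* (1.57, SE 0.43, adjusted p = 0.0341) and the efflux pump *Abcc4* (0.80, SE 0.14, adjusted p = 0.00513). Of 6 genes for NADPH supply 1 rose, *G6pdx* of the pentose phosphate pathway (0.95, SE 0.12, adjusted p = 0.00178). The superoxide dismutases *Sod1* (-0.49) and *Sod2* (-0.31) fell, 2 of 4 genes in the list of other antioxidant enzymes. Of 12 thioredoxins and peroxiredoxins 2 fell, *Txnrd3* (-0.61) and *Prdx4* (-0.46), and of 10 genes for heme and iron handling 2 fell, *Blvrb* (-0.62) and *Hmox2* (-0.30). Among 15 regulators of NRF2, the small MAF gene *Mafk* rose (0.42, SE 0.12, adjusted p = 0.046) and *Nfe2l1* fell (-0.33, SE 0.09, adjusted p = 0.0417). None of the 8 tested genes for glutathione synthesis and reduction passed, and of 6 for metal handling the manganese exporter *Slc30a10* fell (-0.81, SE 0.11, adjusted p = 0.00216). Of 10 acute-phase and stress-hormone genes 4 rose and 1 fell, with *Lcn2* at 2.93, *Saa2* at 2.48 and *Saa1* at 1.94.

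With SC-435 in female KO mice 26 of the 90 rose and 10 fell, where 17.8% of all genes were called, or 20 and 17 with total counts as the scale, where 24.7% were. The single lists were not tested as sets, and their counts can be read beside those shares. NADPH supply had 4 of 6 higher, including *Pgd* (0.62), *Idh1* (0.76) and *Tkt* (0.44). Detoxification had 7 of 19 higher and 2 lower, with *Ugdh*, which makes the sugar donor for glucuronidation, at 1.13 (SE 0.09, adjusted p = 0.000578). Thioredoxins and peroxiredoxins had 5 of 12 higher and 1 lower, with *Txnrd3* at 0.93 and mitochondrial *Prdx3* at 0.82. In glutathione metabolism 3 of 8 rose and 1 fell, with *Glrx* at 0.72, *Gpx4* at 0.47 and *Gsr* at 0.38, beside the fall of *Gclc*. Both superoxide dismutases that were lower in KO mice on chow were higher with SC-435, *Sod1* by 0.45 and *Sod2* by 0.43. In heme and iron handling 3 of 10 rose and 2 fell, with the ferritin chains *Ftl1* (0.55) and *Fth1* (0.53) higher and the iron exporter *Slc40a1* (-0.85) lower. Of the regulators 2 of 15 rose and 1 fell, with *Nfe2*, a relative of *Nfe2l2* best known from blood cells, at 4.09 (SE 0.41, adjusted p = 0.001). Of the acute-phase and stress-hormone genes 3 of 10 fell, with *Lcn2* at -2.69, and none of the 6 for metal handling passed.

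In male KO mice given SC-435 26 rose and 15 fell, where 17.2% of all genes were called, or 19 and 17 with total counts as the scale, where 19.2% were. *Me1*, malic enzyme, rose by 2.07 (SE 0.14, adjusted p = 0.000128) among 2 of 6 NADPH genes, and detoxification had 9 of 19 higher and 2 lower, with *Entpd5* at 0.84 and *Htatip2* at 0.81. In glutathione metabolism 4 of 8 rose and 1 fell, with *Cth*, which makes cysteine, at 1.10 and *Gss*, glutathione synthetase, at -0.75. Thioredoxins and peroxiredoxins had 4 of 12 higher and 1 lower. Of the remaining lists, other antioxidant enzymes had 2 of 4 higher and 1 lower, heme and iron handling 3 of 10 higher and 2 lower, the regulators 2 of 15 higher and 3 lower, metal handling 1 of 6 lower, and acute-phase and stress-hormone genes 4 of 10 lower. In female WT mice given SC-435 10 of the 90 rose and 5 fell, where 4.28% of all genes were called. Those included *Ugdh* (109 CPM on chow and 250 CPM on SC-435, adjusted p = 0.00599), *Abcc4* (5.40 and 12.4 CPM, adjusted p = 0.00599) and *Entpd5* (log2 fold change 0.70) among 5 higher and 1 lower in detoxification, *Cth* (0.86), *Glrx* (0.42) and *Gss* (-0.42) in glutathione metabolism, and *Me1* (0.59) in NADPH supply. *Slc30a10* (-1.07) and the zinc importer *Slc39a4* (-0.35) fell, 2 of 6 metal genes, in the comparison where *Mt1* rose. In male KO against WT mice on chow 3 of the 90 were called, all acute-phase genes (1.08% of all genes), and without replicate 1 of the WT mice 9 rose and 1 fell (7.30%). In male WT mice given SC-435 edgeR called 0 of the 90 (0.0394%), and 8 rose without that library (2.53%). KO females on SC-435 had 15 of the 90 higher and 6 lower than WT females on SC-435 (10.9% of all genes). Those included the glutathione transferases *Gsta1* (3.23), *Gstm3* (1.38) and *Gsta4* (1.04) and *Pgd* (0.55) higher, and *Slc40a1* (-0.49) lower. Against WT females on chow, KO females on SC-435 had 20 higher and 11 lower, beside 8.73% and 7.30% of all genes. In males the same comparisons called 0 (0.0324%) and 1 (0.208%) of the 90.

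Genes whose group means followed those of a member most closely are given as a description, over 8 group means of log2 CPM and 11891 genes. The means share their libraries and scaling, so no p is attached. *Nqo1* was most like *Akr1d1*, the bile acid 5-beta-reductase (Pearson r 0.989), *Serpinb1a* (0.976) and *Papss2* (0.975). *Nfe2l2* was most like *Adamts9* (0.993), *Gclm* most like *Mia2* (0.991), *Gclc* most like *2610001J05Rik* (0.976) and *Hmox1* most like *Slc13a5* (0.988). The 5 strongest of the 45 values among the members themselves were 0.97 for *Mt1* and *Mt2*, -0.94 for *Keap1* and *Hmox1*, 0.85 for *Nqo1* and *Mt1*, -0.82 for *Nfe2l2* and *Gclm* and -0.80 for *Nqo1* and *Gclc*.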

How the data were processed

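RNA from livers of 32 mice, 1 library each, was sequenced by the authors on an Illumina platform after poly(A) selection. The deposited table holds whole-number read counts per gene, made by the authors without normalization; their processing notes name HISAT2 2.0.5, featureCounts 1.5.0-p3 and the build mm10, and the strand setting is not given in the sources used here. The same table holds gene lengths in bases, deposited by the authors and used for RPKM, as well as FPKM values and the authors' own DESeq2 comparisons, which were not used. The 10 genes, the gene lists and the tests were chosen with earlier results of these data known.

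Pairs of groups were compared with edgeR 4.0.16 in R 4.3.3 (filterByExpr, TMM, glmQLFit and glmQLFTest on their 8 libraries, Benjamini-Hochberg adjustment over all genes tested). The SE is the log2 fold change divided by the square root of F. Interactions used 16 libraries. CPM were scaled by TMM over all 32 libraries. Named genes are the 10 members, and up to 3 genes of each list with the smallest adjusted p per comparison; *Saa1*, *Saa2*, *Lcn2*, *Fkbp5*, *Per1* and *Sgk1* in single mice were chosen after their values were seen. *Gsta1* and other transferase genes have close copies, so their counts are uncertain. Columns were treated as separate mice, since the 48 pairs within groups differed by more than counting error (lowest chi-square per gene 20.3), and p values measure the spread between mice. Alternatives were DESeq2 1.42.0, voom with quality weights (limma 3.58.1), median-of-ratios or total-count scaling, other filters, all 4 groups of a sex in one fit, a replicate block and leaving out each library. Tested on simulated data, the fits returned the fold changes put in, but edgeR found fewer of the changed genes for male KO against WT mice on chow than for the other comparisons simulated, and a first requirement on that number was not met there. The markers *Tf* and *Ahsp* were not in the table under these names.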

Additional observations from a re-analysis of the deposited data

Results flagged for a closer look

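Of 80 sets of 4 mice (10 genes in 8 groups), 10 held a mouse whose gap to the nearest other mouse, divided by the range of the group, was beyond Dixon's limit for 4 values, where chance gives about 1 in 20. In males on SC-435, replicate 4 of the WT mice was far above its group for *Mt1* (1082 CPM, ratio 0.9496) and *Txnrd1* (202 CPM, 0.8769) and below it for *Gclc* (240 CPM, 0.8291). In male WT mice on chow, replicate 1, the library that stood apart, was high for *Keap1* (109 CPM, 0.9469) and *Mt2* (0.569 CPM, 0.8483). Male KO mice on SC-435 gave 3 such values, in replicate 3 for *Keap1* (67.4 CPM, 0.8696) and *Mt2* (0.565 CPM, 0.8538) and in replicate 1 for *Gclm* (308 CPM, 0.8291). In female KO mice, replicate 2 on chow was high for *Srxn1* (65.1 CPM, 0.9316) and replicate 4 on SC-435 was low for *Keap1* (59.2 CPM, 0.9020). None of the 40 interaction tests passed.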

How the results depend on the processing

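With 4 mice a group, the number of the 10 genes called moved with the test and with single mice, and no call changed direction in any of the 2644 values recomputed for single genes. Fold changes that were not called in either fit changed sign in 114 of these. Of the values under other settings 1082 kept their side of the threshold, 37 gained a call and 13 lost one, and of those without 1 library 1460, 14 and 38. The cause of these moves was not tested. *Mt2* has no value in KO males on SC-435 against WT males on chow and in other fits whose filter removed it.

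In female KO against WT mice on chow the count of 1 became 3 with total counts, with voom and with the 4 groups of the sex in one fit. SC-435 in female KO mice went from 3 to 7 with voom, and to 4 with DESeq2 or no filter on low counts, which added *Mt1*, and with total counts, which added *Nfe2l2*. KO against WT females under SC-435 went from 1 to 0 with 4 groups in one fit. KO females on SC-435 against WT females on chow lost *Mt1* with DESeq2, which left 3. KO against WT males on chow went from 0 to 5 with voom and 2 with 4 groups, and SC-435 in male KO mice from 3 to 0 with 4 groups. With voom, SC-435 in male WT mice and KO males on SC-435 against WT males on chow each went from 0 to 3, and female against male WT mice on chow from 0 to 4, or 1 with DESeq2. The female interaction went from 0 to 1 with total counts and voom, and the male one from 0 to 1 with DESeq2 and voom.

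With the replicate number as a block, SC-435 in female WT mice went from 4 to 1 and in male KO mice from 3 to 1. The numbers only name mice: in 0 of 11 comparisons did every same-numbered pair correlate above 0.1 (from -0.22 to 0.43), so this pairing is not part of the design.

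Without 1 library in turn, the counts ranged in females from 0 to 2 for KO against WT on chow, from 1 to 4 for SC-435 in KO and in WT mice, from 0 to 2 for KO against WT under SC-435 and from 3 to 4 for KO mice on SC-435 against WT mice on chow. In males the same counts ranged from 0 to 1, from 0 to 4, from 0 to 1, from 0 to 0 and from 0 to 3. Female against male WT mice ranged from 0 to 2, the male interaction from 0 to 1, and the other 3 interactions from 0 to 0. The highest male counts for KO against WT on chow, SC-435 in WT mice and KO on SC-435 against WT on chow came without replicate 1 of the WT mice on chow. Calls kept in every alternative and without any library were *Gclc* with SC-435 in both female genotypes, and *Gclc*, *Nqo1* and *Srxn1* in KO females on SC-435 against WT females on chow. *Gclm* in KO males was lost with total counts, the block and 4 groups in one fit, and *Srxn1* in WT females without any 1 of 4 libraries.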
